A study of Mus musculus with 58 samples.

Results

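The interferon-induced GTPases described here are 4 guanylate-binding proteins (GBP: Gbp2, Gbp3, Gbp5 and Gbp7) and 5 immunity-related GTPases (IRG: Irgm1, Irgm2, Igtp, Iigp1 and Ifi47). They were chosen by name, as 9 of the 47643 genes counted in 34 libraries of mouse microglia, and each was matched by its symbol to 1 Ensembl identifier. Interferons switch these genes on through the JAK kinases and the STAT and IRF factors, and their products gather on the membranes of vacuoles that hold bacteria or protozoa. GBP proteins open such vacuoles and the microbes inside them and feed the inflammasome, the complex that activates caspase-1 and caspase-11. Among the IRG proteins, the regulators Irgm1, Irgm2 and Igtp (also called Irgm3) sit on the cell's own membranes and hold the effector GTPases Iigp1 (Irga6) and Ifi47 (Irgd) inactive there.

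The study asked how tau, the protein that aggregates in Alzheimer's disease and related dementias, and NF-κB, the transcription factor that the kinase IKKβ (gene Ikbkb) activates, change microglia. Wild-type primary microglia were given 2 µg/ml full-length tau fibrils or vehicle for 24 h, with 4 cultures each. Adult microglia were isolated with CD11b beads from 4 PS19 mice, which carry human tau with the P301S mutation, and from 4 NTG (non-transgenic) mice, all labelled male and 10.98 or 11.18 months old. Primary IkbkbCA microglia (5 cultures) carried R26-StopFLikk2ca, a constitutively active IKKβ behind a floxed stop in the Rosa26 locus, and 1 copy of Cx3cr1CreERT2, while their IkbkbWT littermates (5 cultures) carried the floxed allele without Cre. Likewise, Ikbkb-/- microglia (4 cultures) carried 2 floxed Ikbkb alleles and 1 copy of Cx3cr1CreERT2, and Ikbkb+/+ microglia (4 cultures) carried the floxed alleles without Cre. All cultures of the 4 Ikbkb groups received 4-hydroxytamoxifen, and primary microglia were shaken off mixed glia of newborn pups. In the PS19 line the mouse prion promoter drives human tau in neurons, so microglia of these mice meet tau made by other cells. Cre sits in one Cx3cr1 allele, so its presence and the IKKβ genotype cannot be told apart.

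The libraries were QuantSeq 3′ mRNA-Seq libraries, in which a read comes from near the end of a transcript and a count does not grow with gene length, so levels are given as CPM (counts per 1000000 counted reads, TMM-normalized over all 34 libraries). Total counts were 1672052 to 8349128 per library. Nothing in the labels says which cultures came from separate litters, so p-values measure the spread between these libraries, and replicates are numbered only to name them. Ikbkb was 18.7 to 24.7 CPM in Ikbkb-/- and 45.6 to 55.2 CPM in Ikbkb+/+ cultures, a fold of 0.434. Reads of Ikbkb thus remained in cultures labelled Ikbkb-/-, and the reason was not tested. Levels of Ikbkb were 45.0 to 60.4 CPM in IkbkbCA against 40.4 to 58.8 CPM in IkbkbWT cultures. Reads at the 3′ end of Ikbkb need not cover the inserted transgene, so the last pair checks nothing. The paper reports raised Ikbkb mRNA by quantitative PCR in such IkbkbCA cultures, which these counts do not test. The Y-linked gene Ddx3y was 155 to 173 CPM in Ikbkb-/- and 35.0 to 69.4 CPM in Ikbkb+/+ cultures, so the mix of sexes in the cultures and the genotype cannot be told apart. It was near 0 in 2 of the 5 IkbkbWT cultures, with 1.15 CPM as the lowest, and 143 to 177 CPM in the rest. All IkbkbCA cultures held 49.3 to 85.9 CPM, so the mix of sexes was not matched in this pair either. Xist, which is expressed from the inactive X chromosome of female cells, was 177 CPM in PS19 replicate 1 and 1.80 to 31.1 CPM in the other 7 adult libraries, all labelled male, which goes against the label of that library, although its Ddx3y, at 123 CPM, lay within their range of 101 to 223 CPM. All 9 microglia markers were detected in every group, and the summed T and NK cell markers, the source of much interferon gamma in the body, reached 2.53 CPM at most in adult libraries and 0.412 CPM in cultures.

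On GRCm38 (GENCODE M21) the GBP members lie near one another on the plus strand of chromosome 3, all protein coding: Gbp5 at chr3:142493978-142522344, Gbp7 at chr3:142530342-142550149, Gbp3 at chr3:142560026-142573209 and Gbp2 at chr3:142620602-142638008. Another GBP gene, Gbp2b, lies between Gbp3 and Gbp2. On chromosome 11 lie Irgm1 at chr11:48861968-48871683 on the minus strand, Ifi47 at chr11:49076587-49096974, Igtp at chr11:58199556-58207591 and Irgm2 at chr11:58199618-58222782, the last 3 on the plus strand. Exons of Igtp and Irgm2 overlap on the same strand, as do exons of Ifi47 and Olfr56. Of the 50-base words in the last 300 bases of their transcripts, Igtp, Irgm2, Gbp2, Gbp7, Iigp1 and Ifi47 shared 0 with other genes, Gbp3 shared 5.98% (with Gbp7), Gbp5 3.03% and Irgm1 8.63%, so reads could be split between near-identical copies only over small stretches.

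RefSeq promoter windows (GRCm38.p6, 250 bases before to 50 bases after the start of transcription) were found for 8 of the 9 members, with none for Iigp1. The interferon-stimulated response element (ISRE), which IRF factors bind, was searched as GAAANNGAA on both strands, and occurred in 7 of these 8 genes and in 8.56% of all 32851 windows. The interferon gamma activated site (GAS) was searched as TTCNNNGAA and occurred in 4 of the 8 genes (Gbp5, Gbp7, Irgm2 and Igtp) and in 8.3% of all windows. The kappaB consensus of NF-κB occurred in Gbp2 and Gbp5 and in 8.46% of all windows. The percentages count windows, which belong to 27025 genes, while the members are counted as genes. Gbp3 had a second window, which held no match. A match says only that these letters are present. The windows of 6 members, each from 170 bases before the start to the base before it, are shown because they hold these matches (capitals) and allow them to be compared:
Gbp2 (chr3:142620493-142620662, plus strand): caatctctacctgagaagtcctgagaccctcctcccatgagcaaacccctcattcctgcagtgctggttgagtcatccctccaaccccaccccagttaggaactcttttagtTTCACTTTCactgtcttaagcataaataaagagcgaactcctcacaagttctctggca
Gbp5 (chr3:142496764-142496933, plus strand): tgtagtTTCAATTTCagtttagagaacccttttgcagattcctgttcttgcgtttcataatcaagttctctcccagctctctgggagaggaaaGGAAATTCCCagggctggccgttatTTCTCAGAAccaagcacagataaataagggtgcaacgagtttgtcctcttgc
Gbp7 (chr3:142530166-142530335, plus strand): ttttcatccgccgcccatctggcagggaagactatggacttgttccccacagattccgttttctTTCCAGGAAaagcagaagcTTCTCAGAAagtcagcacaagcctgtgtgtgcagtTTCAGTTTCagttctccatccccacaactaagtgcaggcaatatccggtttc
Irgm1 (chr11:48871421-48871590, minus strand): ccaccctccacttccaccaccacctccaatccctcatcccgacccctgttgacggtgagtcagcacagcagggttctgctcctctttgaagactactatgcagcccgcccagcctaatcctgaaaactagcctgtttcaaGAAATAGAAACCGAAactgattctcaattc
Irgm2 (chr11:58214807-58214976, plus strand): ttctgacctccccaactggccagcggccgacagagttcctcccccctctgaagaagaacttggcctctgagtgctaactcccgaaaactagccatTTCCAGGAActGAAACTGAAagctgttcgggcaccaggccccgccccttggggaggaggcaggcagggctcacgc
Igtp (chr11:58199386-58199555, plus strand): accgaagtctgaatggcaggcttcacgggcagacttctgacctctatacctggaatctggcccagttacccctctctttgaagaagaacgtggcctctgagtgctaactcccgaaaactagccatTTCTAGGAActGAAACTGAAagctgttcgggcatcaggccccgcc

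Irgm2 and Igtp held the same arrangement, a GAS followed after 2 bases by an ISRE core on the plus strand, and shared an identical run of 38 bases, against at most 13 bases in any other pair of these members. The arrangement is not particular to this pair, since the windows of the IRG genes Tgtp1, Tgtp2 and Gm12185, which are not members, held it too. In Gbp5 the kappaB match lay at −77 to −68, between an ISRE core at −164 and a GAS at −52, with a further GAS at −245 outside the printed stretch. The ISRE core of Gbp2 lay at −58, and its kappaB match lay after the start, at 8 to 17. Irgm1 held 2 overlapping ISRE cores at −30 and −24 and no GAS. Gbp3 likewise held 2 overlapping ISRE cores, at −44 and −38 on the minus strand. The window of Ifi47 held none of the 3 motifs.

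**Figure D1:**
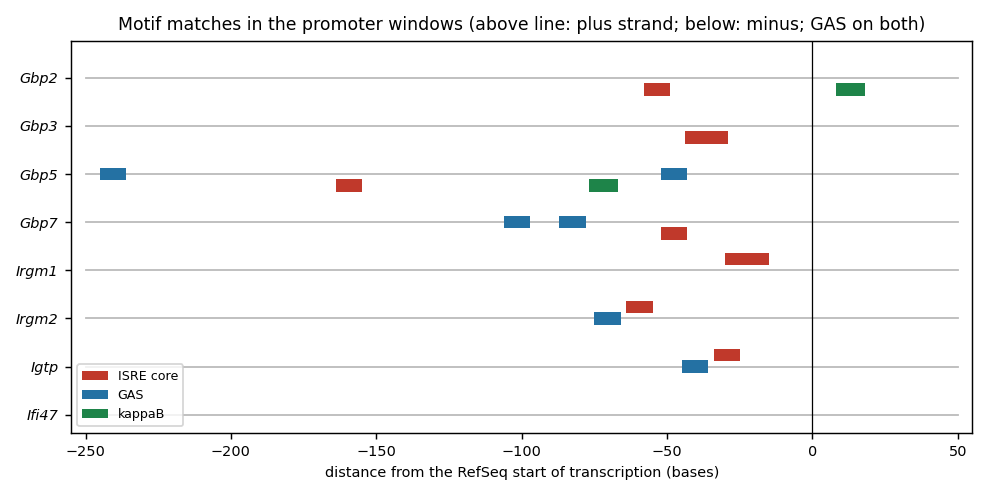
Matches of the ISRE core, the GAS and the kappaB consensus in the RefSeq promoter windows of the 8 members with a window, by distance in bases from the start of transcription (x axis); 1 line per gene, with bars above the line for the plus strand, below it for the minus strand and on it for the GAS, which reads alike on both. ISRE core matches lie close before the start in Gbp2, Gbp3, Gbp7, Irgm1, Irgm2 and Igtp and farther away in Gbp5, and Ifi47 has no match.

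Tau fibrils raised every member in primary microglia. All 9 passed the threshold (edgeR's quasi-likelihood test, Benjamini-Hochberg FDR under 0.05 over all 10408 genes tested), with a median log2 difference of 3.31, while the median over all genes tested was −0.01 and 14.5% of them were called higher. In all 9 members the tau and vehicle cultures did not overlap, which held in the higher direction for 12.6% of all genes tested. The summed level of the members was 261 ± 8.0 CPM (SD, n = 4) with tau fibrils and 28.7 ± 4.12 CPM (SD, n = 4) with vehicle.

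Among the GBP members, Gbp2, which coats bacterial and parasite vacuoles, was 24.0, 21.8, 26 and 19.8 CPM with tau fibrils and 1.09, 1.57, 1.74 and 0 CPM with vehicle. Its log2 difference was 4.22 (SE 0.38), an 18.7-fold rise with a 95% interval of 10.8 to 32.3 (edgeR, FDR = 1.36e-09). In the vehicle culture without a read, 3 counts, the number that a count of 0 allows, would be 1.52 CPM. Gbp3 was 14.2, 19.0, 15.0 and 23.6 CPM with tau fibrils against 0, 0.787, 1.31 and 3.55 CPM with vehicle, a log2 difference of 3.79 (SE 0.46) that was 4.54 without vehicle replicate 4. Gbp5, which is known to promote assembly of the NLRP3 inflammasome, was the scarcest of the 4 with tau fibrils, at 10.9, 4.94, 7.32 and 5.30 CPM against 1.09, 1.38, 0.436 and 0 CPM, a log2 difference of 3.02 (SE 0.54), or 3.71 without vehicle replicate 2. Gbp7 had the least spread of the GBP members relative to its mean, at 34.3, 33.8, 39.9 and 33.3 CPM against 2.17, 3.54, 3.05 and 2.03 CPM. Its log2 difference was 3.65 (SE 0.27), a 12.5-fold rise.

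Among the IRG members, Ifi47, one of the effector GTPases, rose most, with 39.3, 30.9, 32.9 and 36.6 CPM with tau fibrils and 3.26, 0.591, 1.74 and 1.02 CPM with vehicle. That is a log2 difference of 4.65 (SE 0.35), or 25.0-fold with a 95% interval of 15.3 to 41.0 (edgeR, FDR = 2.21e-11). The other effector, Iigp1, a gene on chromosome 18, was 9.81, 10.3, 14.3 and 7.23 CPM against 2.17, 0.197, 2.18 and 0.508 CPM, a log2 difference of 3.31 (SE 0.52), or 2.67 without vehicle replicate 2. The regulators rose from higher vehicle levels. Igtp was the most abundant member with tau fibrils, at 58.3, 66.7, 72.5 and 87.3 CPM against 11.4, 8.07, 7.84 and 6.09 CPM, a log2 difference of 3.15 (SE 0.21). Irgm1 was 32.7, 28.0, 31.5 and 30.4 CPM against 8.70, 2.76, 4.79 and 0.508 CPM, a log2 difference of 3.0 (SE 0.35) in which the vehicle cultures were spread far more widely than the tau cultures. Irgm2 rose least, from 4.35, 9.84, 4.36 and 10.7 CPM to 34.3, 36.3, 25.6 and 26.5 CPM, a log2 difference of 2.05 (SE 0.27) and a 4.15-fold rise.

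**Figure D2:**
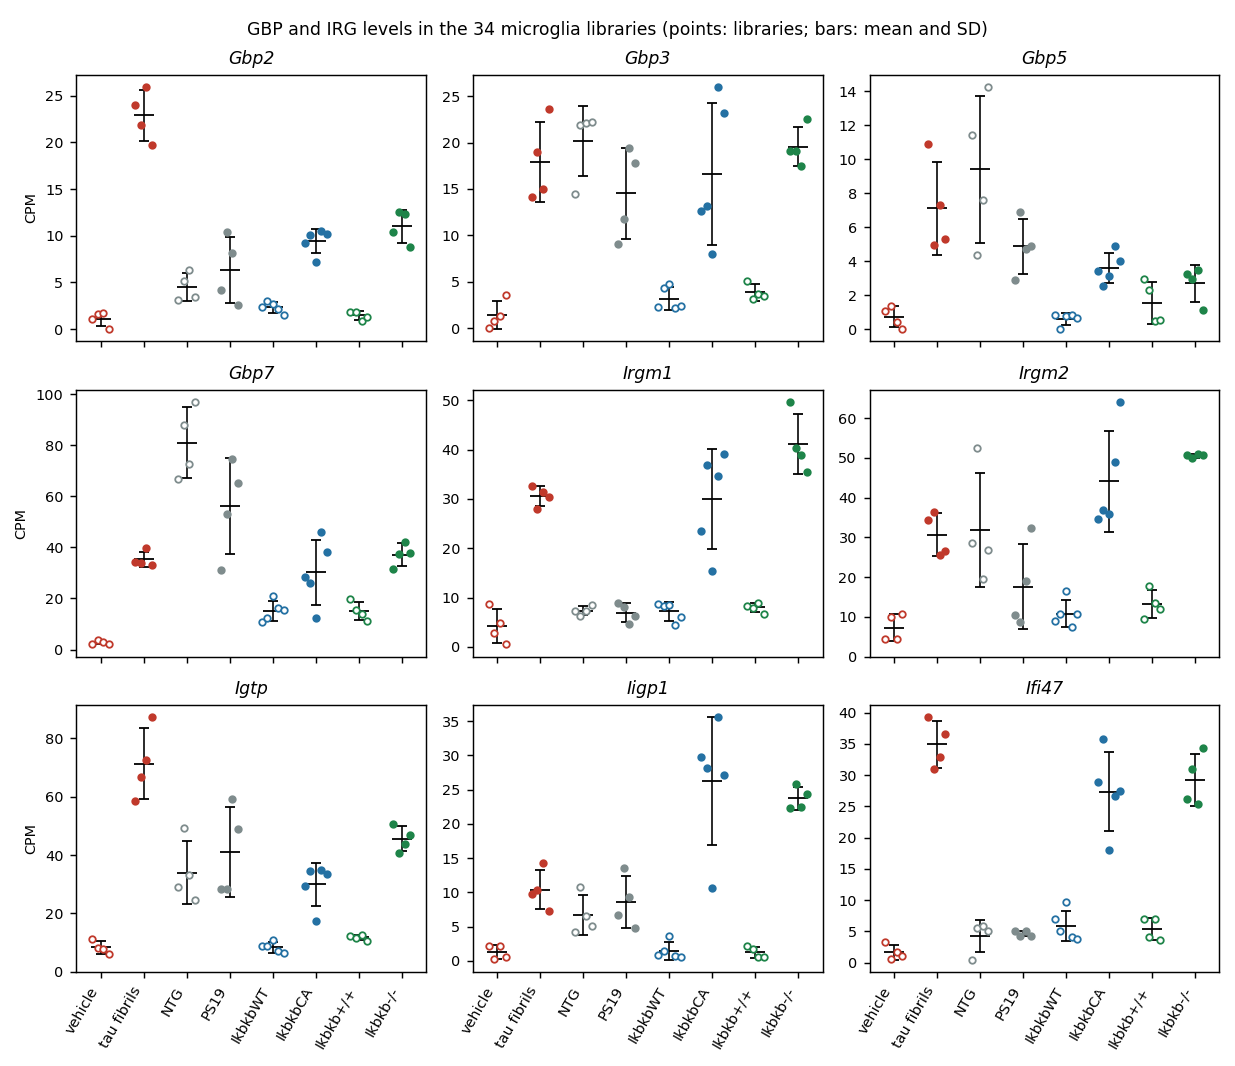
Level of each of the 9 members in CPM (y axis, linear, its own range per panel) in the 34 libraries, by group (x axis); points are libraries (open, control groups; filled, tau fibrils, PS19, IkbkbCA and Ikbkb-/-), and bars give the mean and SD. The tau fibril points lie above all vehicle points in every panel, the PS19 and NTG points overlap in every panel, and 1 IkbkbCA culture lies below the other 4 in 7 of the 9 panels.

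Other genes of both families and of the interferon pathway rose with tau fibrils as well. Of the 7 other GBP genes 1 had enough reads to be tested, Gbp9, with 8.68 to 17.3 CPM against 0 to 1.63 CPM, and it rose. Of the 12 other IRG genes 4 were tested and 3 rose: Gm12250, at 16.1 to 22.7 CPM against 0 to 0.543 CPM, Gm5431 (log2 difference 2.29) and 9930111J21Rik2 (1.16, with overlapping groups). The ends of Gm5431 and 9930111J21Rik2 share 25.6% and 65.5% of their 50-base words with other genes, which makes their counts uncertain. The antiviral GTPases Mx1, at 14.2 to 19.8 CPM against 0 to 0.508 CPM, and Mx2, at 6.18 to 10.4 CPM against 0 to 0.436 CPM, rose too. Of 13 interferon receptor, kinase and transcription factor genes tested, 11 rose and 0 fell, among them Stat2 (log2 difference 3.29), the MHC class I activator Nlrc5 (2.02) and Irf1 (1.73). Of 18 genes for inflammasome parts and for the conjugation of LC3 and GABARAP, which GBP and IRG proteins work with, 9 rose and 1 fell. The risers were led by Casp4 (caspase-11, 2.89), Casp1 (2.06), Gsdmd (1.76) and Pycard (1.69), and Map1lc3a fell by 0.60 on the log2 scale. Ifng and Ifnb1, the genes of interferon gamma and beta, had too few reads to be tested here.

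Other features of these libraries moved with tau fibrils too, and their part in the result was not tested. The summed microglia markers were 10457 to 12069 CPM with tau fibrils and 4630 to 6141 CPM with vehicle, with 6 of 9 called higher. Summed astrocyte markers were 268 to 341 CPM against 505 to 543 CPM (3 of 6 called lower), and summed neuron markers were 55.1 to 63.5 CPM against 101 to 131 CPM (4 of 5 tested called lower). Summed endothelium markers were 44.7 to 53.2 CPM against 91.5 to 113 CPM (1 of 1 tested called lower), and border-associated macrophage markers were 109 to 115 CPM against 60.9 to 97.2 CPM (1 of 2 tested called higher). Reads outside annotated genes made up 16.3% to 22.2% against 23.3% to 29.1% of reads. In such bulk samples, fewer cells of a type and less RNA per cell cannot be told apart.

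In adult microglia none of the 9 members passed the threshold between PS19 and NTG mice. Few genes did in this fit: 8 of the 11323 tested (0.0707%) were called higher and 0 lower. The paper reports far more raised genes from the same mice than were called here, and the reason was not tested. With so few calls, the lack of a call does not show that the members were unchanged. The median log2 difference over the members was −0.16, with 4 members higher and 5 lower, and in all of them the mice of both genotypes overlapped. Of all genes tested, 4.54% did not overlap in the higher direction and 1.66% in the lower. At an unadjusted p under 0.05 by edgeR 3 members were counted, all lower in PS19, where 3.68% of all genes were lower at that level. DESeq2 and limma-voom likewise called 0 members.

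The 3 members were Gbp5, Gbp7 and Irgm2. Gbp5 was 2.90, 6.91, 4.74 and 4.91 CPM in PS19 and 11.4, 4.38, 7.58 and 14.3 CPM in NTG microglia, a log2 difference of −1.0 with a 95% interval of −1.93 to −0.07 (edgeR, FDR = 0.546). Gbp7 was 31.3, 53.0, 74.8 and 65.4 CPM against 66.8, 88.0, 72.6 and 97.0 CPM, a log2 difference of −0.59 with an interval of −1.15 to −0.03. For Gbp5 3 of the 4 NTG mice lay above the PS19 median, and for Gbp7 4 of 4 did. PS19 replicate 1, the library with the high Xist, was the lowest PS19 library for both, and without it the difference of Gbp7 was −0.39 and again 0 members were called. Irgm2 spread from 8.64 to 32.2 CPM in PS19 and from 19.6 to 52.6 CPM in NTG microglia, a log2 difference of −0.90 that ran from −1.37 without PS19 replicate 4 to −0.52 without NTG replicate 2. Igtp was 28.3, 28.2, 59.1 and 48.8 CPM in PS19 and 29.0, 49.4, 33.0 and 24.5 CPM in NTG microglia, a log2 difference of 0.21 with an interval of −0.43 to 0.84. The intervals of the other members, Gbp2 (−0.67 to 1.41), Gbp3 (−1.16 to 0.09), Irgm1 (−0.89 to 0.57), Iigp1 (−0.63 to 1.17) and Ifi47 (−1.08 to 1.13), all include 0, and all lie below the tau fibril estimates of the same genes.

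Of the other genes tested in adult microglia, 0 of 2 GBP, 0 of 3 IRG, 0 of 13 interferon pathway and 0 of 18 partner genes were called. Adult libraries held granulocyte markers, with a sum of 379 to 2349 CPM in PS19 and 1347 to 1980 CPM in NTG microglia, and GBP and IRG levels can come from those cells as well, which was not tested. With 4 mice a group the biological coefficient of variation was 30.5%, against 16.7% in the tau fibril cultures.

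The effect of tau fibrils in culture was larger than the PS19 effect in every member (edgeR, 1 fit of 16 libraries, FDR under 0.05, where 8.07% of 11852 genes were called in either direction). The difference between both log2 differences was 4.52 for Ifi47 (95% interval 3.22 to 5.81), 4.15 for Gbp7 (3.37 to 4.94) and 2.85 for Igtp (2.04 to 3.66). The cultures and the brain differ in more than tau, in age, isolation and the form and duration of tau.

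In primary IkbkbCA microglia 8 of the 9 members rose against IkbkbWT, where 7.31% of 11697 genes tested were called higher. The median log2 difference was 2.05 over the members and −0.05 over all genes tested, and the summed level was 217 ± 58.0 CPM (SD, n = 5) in IkbkbCA and 55.1 ± 13.3 CPM (SD, n = 5) in IkbkbWT cultures. The 8 members did not overlap between the genotypes, which held for 6.51% of all genes tested in that direction.

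Iigp1, the effector that is loaded onto parasite vacuoles, rose most. It was 29.7, 28.1, 10.6, 35.5 and 27.2 CPM in IkbkbCA and 0.831, 1.43, 3.59, 0.656 and 0.567 CPM in IkbkbWT cultures, a log2 difference of 4.26 (SE 0.48) or 19.1-fold with an interval of 9.23 to 39.7 (edgeR, FDR = 0.000127). Without IkbkbWT replicate 3, the highest of its group, the log2 difference was 4.95. IkbkbCA replicate 3 was the lowest of its group, and the IkbkbWT range stayed below it. Ifi47, the other effector, was 28.9, 35.8, 18, 26.7 and 27.4 CPM against 6.98, 5.10, 9.64, 4.10 and 3.74 CPM, a log2 difference of 2.21 (SE 0.27). The regulators rose by 2.05 for Irgm1 (SE 0.27; 15.4 to 39.2 CPM against 4.43 to 8.64 CPM), 2.01 for Irgm2 (SE 0.24; 34.7 to 64.1 CPM against 7.38 to 16.4 CPM) and 1.83 for Igtp (SE 0.21) on the log2 scale. Igtp was 29.4, 34.5, 17.4, 34.8 and 33.7 CPM against 8.80, 8.77, 11.0, 7.06 and 6.35 CPM, and IkbkbCA replicate 3 was again the lowest.

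Among the GBP members, Gbp5 was 3.42, 2.52, 3.15, 4.90 and 3.99 CPM in IkbkbCA and 0.831, 0, 0.756, 0.820 and 0.680 CPM in IkbkbWT cultures, a log2 difference of 2.46 (SE 0.43), where 3 counts in the library at 0 would be 0.612 CPM. Gbp2 was 9.23, 10.1, 7.23, 10.5 and 10.2 CPM against 2.33, 3.06, 2.65, 2.13 and 1.47 CPM, a log2 difference of 2.02 (SE 0.22), and had the least spread of the GBP members relative to its mean in IkbkbCA cultures. Gbp3 rose by 2.39 (SE 0.36) on the log2 scale, to 7.97 to 26 CPM from 2.13 to 4.72 CPM, the widest spread of the GBP members that passed. Gbp7 did not pass the threshold, with 28.5, 26.1, 12.2, 45.9 and 38.2 CPM in IkbkbCA and 11.0, 12.2, 21, 16.4 and 15.5 CPM in IkbkbWT cultures. Its log2 difference was 0.97 (SE 0.30; edgeR, FDR = 0.0531), and IkbkbCA replicate 3 lay within the IkbkbWT range. Without that culture the difference was 1.20 (edgeR, FDR = 0.00381), and without IkbkbWT replicate 3 it was 1.12 (FDR = 0.0421). With all cultures kept, Gbp7 passed with RLE normalization (edgeR, FDR = 0.0445) and with DESeq2 (FDR = 0.0102). It passed in 7 of 19 alternatives, so its call depends on the processing and on the cultures included.

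The other members of the families and the interferon pathway moved the same way in part. Both other GBP genes tested rose, Gbp6 (1.85 to 3.74 CPM against 0 to 0.756 CPM) and Gbp9 (log2 difference 1.25, with overlapping groups), though the end of Gbp6 shares all of its 50-base words with Gbp10 and other copies, which makes its count uncertain. Of 5 other IRG genes tested, Gm12250 (2.28), Gm4951 (2.2) and Gm5431 (1.40, with overlapping groups) rose and Irgq fell by 0.40 on the log2 scale. Mx1 (3.08) and Mx2 (2.12) rose. Of 14 interferon pathway genes 8 rose and 0 fell, among them Stat2 (2.04), Nlrc5 (1.88) and the feedback inhibitor Socs1 (1.25). Of the 18 partner genes 5 rose, with Nlrp3 (1.15), Casp4 (0.99), Casp1 (0.51) and Sqstm1 (0.50) in front.

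Markers moved with this genotype as well, and their part was not tested. Summed border-associated macrophage markers were 489 to 1034 CPM in IkbkbCA and 1393 to 1966 CPM in IkbkbWT cultures, with 4 of 5 tested called lower. Summed microglia markers were 14194 to 22799 CPM against 11370 to 16172 CPM (4 of 9 called higher and Cx3cr1 lower), and summed granulocyte markers 16.4 to 85.4 CPM against 6.07 to 11.0 CPM (1 of 2 tested called higher). Reads outside genes were 12.4% to 14% against 15.9% to 18.7%.

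In Ikbkb-/- cultures, too, 8 of 9 members rose against Ikbkb+/+ (7.64% of 11242 genes tested were called higher), with a median log2 difference of 2.37 over the members and 0.00017 over all genes tested. The 8 did not overlap between the genotypes, which held for 8.66% of all genes tested in that direction. The summed level was 261 ± 3.07 CPM (SD, n = 4) in Ikbkb-/- and 61.6 ± 8.43 CPM (SD, n = 4) in Ikbkb+/+ cultures.

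Iigp1 again rose most, from 2.19, 1.67, 0.5 and 0.531 CPM in Ikbkb+/+ to 22.4, 25.8, 22.4 and 24.4 CPM in Ikbkb-/- cultures. Its log2 difference was 4.53 (SE 0.28), or 23.2-fold with an interval of 15.4 to 34.8 (edgeR, FDR = 1.48e-09). Ifi47 was 26.2, 31.0, 25.4 and 34.3 CPM against 6.94, 4.18, 7.01 and 3.58 CPM, a log2 difference of 2.51 (SE 0.20). The regulators followed with 2.37 for Irgm1 (SE 0.15), 1.96 for Igtp (SE 0.13) and 1.92 for Irgm2 (SE 0.14). Irgm1 was 49.7, 40.4, 39.0 and 35.5 CPM against 8.40, 7.95, 9.01 and 6.64 CPM, and Irgm2 was 50.8, 49.8, 50.9 and 50.8 CPM against 9.5, 17.8, 13.5 and 12.1 CPM, the most even of all members in Ikbkb-/- cultures.

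Gbp2 was 10.4, 12.6, 12.4 and 8.80 CPM in Ikbkb-/- and 1.83, 1.88, 0.834 and 1.33 CPM in Ikbkb+/+ cultures, a log2 difference of 2.98 (SE 0.28). Gbp3 rose by 2.42 (SE 0.19) on the log2 scale, with 17.5 to 22.5 CPM against 3.14 to 5.11 CPM. Gbp7 rose by 1.39 (SE 0.16), with 31.7 to 42.3 CPM against 11.0 to 19.7 CPM. Gbp5 did not pass the threshold: it was 3.27, 2.93, 3.50 and 1.10 CPM in Ikbkb-/- and 2.92, 2.30, 0.5 and 0.531 CPM in Ikbkb+/+ cultures. Its log2 difference was 0.98 with a 95% interval of −0.14 to 2.10 (edgeR, FDR = 0.253), and both of the lowest Ikbkb+/+ cultures lay below every Ikbkb-/- culture.

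**Figure D3:**
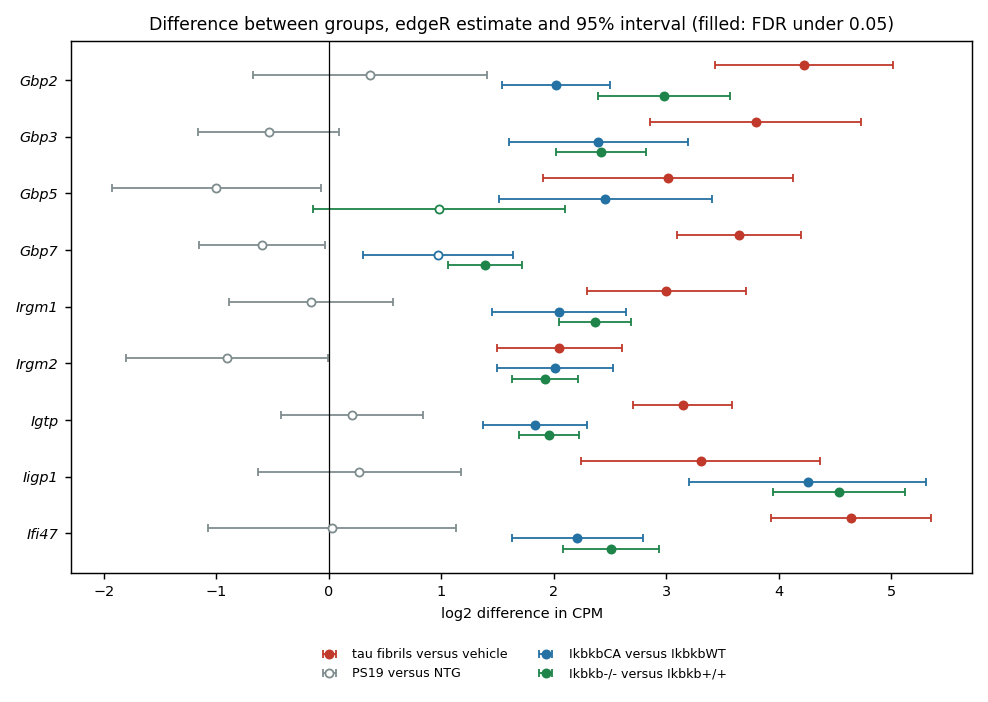
Log2 difference in CPM (x axis) of each member (y axis) in the 4 comparisons, edgeR estimate with its 95% interval, filled where the FDR was under 0.05. The tau fibril values run from 2.05 to 4.65 and are all filled, the PS19 values lie around 0 and are all open, and the IkbkbCA and Ikbkb-/- values lie close together except for Gbp2 and Gbp5.

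Gbp9 (log2 difference 2.19), Gm4951 (5.09), Gm12250 (2.95), Gm5431 (1.86), 9930111J21Rik2 (0.88, with overlapping groups), Mx1 (3.22) and Mx2 (3.22) rose in Ikbkb-/- cultures, as did Gbp4, at 2.75 to 3.98 CPM against 0 to 0.731 CPM. The counts of Gm5431 and 9930111J21Rik2 are uncertain here too, for their shared words, and the end of Gbp4 shares 26% of its 50-base words with other GBP genes and Gm43302. In all, 2 of 2 other GBP and 4 of 5 other IRG genes tested rose. Of 14 interferon pathway genes 6 rose and 0 fell, among them Stat2 (2.73), Nlrc5 (1.73) and Socs1 (1.70). Of the 18 partners 3 rose, Casp1 (0.53), Map1lc3a (0.40) and Atg12 (0.39), while Casp4 (−0.04; edgeR, FDR = 0.942) and Nlrp3 (−0.04; FDR = 0.925), named here for their rise in IkbkbCA cultures, did not pass the threshold, and the difference between the genotypes was not tested for them.

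The genotype came with other shifts, whose part was not tested. Summed border-associated macrophage markers were 422 to 741 CPM in Ikbkb-/- and 1510 to 1849 CPM in Ikbkb+/+ cultures, with 5 of 5 tested called lower, and 5 of 6 oligodendrocyte markers were called higher (sums of 488 to 575 CPM against 268 to 377 CPM). Summed microglia markers overlapped, at 15916 to 18375 CPM against 14667 to 17399 CPM, though 2 of 9 were called higher and 3 lower. Both granulocyte markers tested were called lower (sums of 7.70 to 11.5 CPM against 7.04 to 369 CPM), as was 1 of 4 astrocyte markers tested (31.1 to 62.8 CPM against 49.7 to 207 CPM). Summed endothelium markers were 162 to 215 CPM against 63.9 to 116 CPM, with 1 called higher and 1 lower. In 1 fit of the 18 Ikbkb libraries with the level of Ddx3y as a covariate, chosen after the data were seen, 8 members were called, and the highest FDR among them was 0.0128, for Gbp7. This fit cannot tell sex and genotype apart, because Ddx3y levels did not overlap between Ikbkb-/- and Ikbkb+/+ cultures.

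Set side by side, the IkbkbCA and Ikbkb-/- effects had the same sign in all 9 members, and they share no control cultures. None of the 9 differences between them passed the threshold (edgeR, 1 fit of 18 libraries, where 3.12% of 12352 genes were called), and 1 member had an unadjusted p under 0.05, Gbp2, with −0.92 and a 95% interval of −1.66 to −0.18 (edgeR, FDR = 0.2). DESeq2 and limma-voom called 0 as well. The intervals allow differences of −0.66 to 0.44 for Igtp, −0.54 to 0.73 for Irgm2, −1.03 to 0.41 for Irgm1 and −1.04 to 0.53 for Ifi47. They are wide for Iigp1 (−1.66 to 1.24) and for Gbp5, where the estimate was 1.57 with an interval of −0.08 to 3.21. Cx3cr1, which carries the Cre, was lower in both Cre genotypes, at 1126 to 1316 CPM in IkbkbCA against 1500 to 2014 CPM, and at 957 to 1161 CPM in Ikbkb-/- against 1825 to 2857 CPM. An effect of Cre itself and of IKKβ cannot be told apart in either pair.

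For 4 members the tau fibril effect was larger than the difference between IkbkbCA and IkbkbWT cultures (edgeR, 1 fit of 18 libraries, where 9.42% of 12841 genes were called in either direction). The difference between the log2 differences was 2.61 for Gbp7 (95% interval 1.67 to 3.56), 2.36 for Ifi47 (1.31 to 3.41), 2.16 for Gbp2 (1.19 to 3.13) and 1.24 for Igtp (0.59 to 1.89). For Irgm2 it was −0.02 with an interval of −0.86 to 0.81. Iigp1 leaned the other way, with −1.0 and an interval of −2.86 to 0.87 (edgeR, FDR = 0.534), which did not pass the threshold. Gbp7, the member with the largest of these differences, started from 2.70 ± 0.72 CPM (SD, n = 4) in vehicle and 15.2 ± 3.93 CPM (SD, n = 5) in IkbkbWT cultures and reached 35.3 ± 3.07 and 30.2 ± 12.8 CPM. Mean levels in vehicle and IkbkbWT cultures were 1.65 and 5.91 CPM for Ifi47, 1.10 and 2.33 for Gbp2, and 8.35 and 8.39 for Igtp. The control cultures also differed in summed microglia markers, at 4630 to 6141 CPM in vehicle and 11370 to 16172 CPM in IkbkbWT, whose part was not tested. The paper describes plating before tau treatment, while 4-hydroxytamoxifen is stated only for the Ikbkb cultures. Such differences between the experiments and a difference between the effects cannot be told apart.

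**Figure D4:**
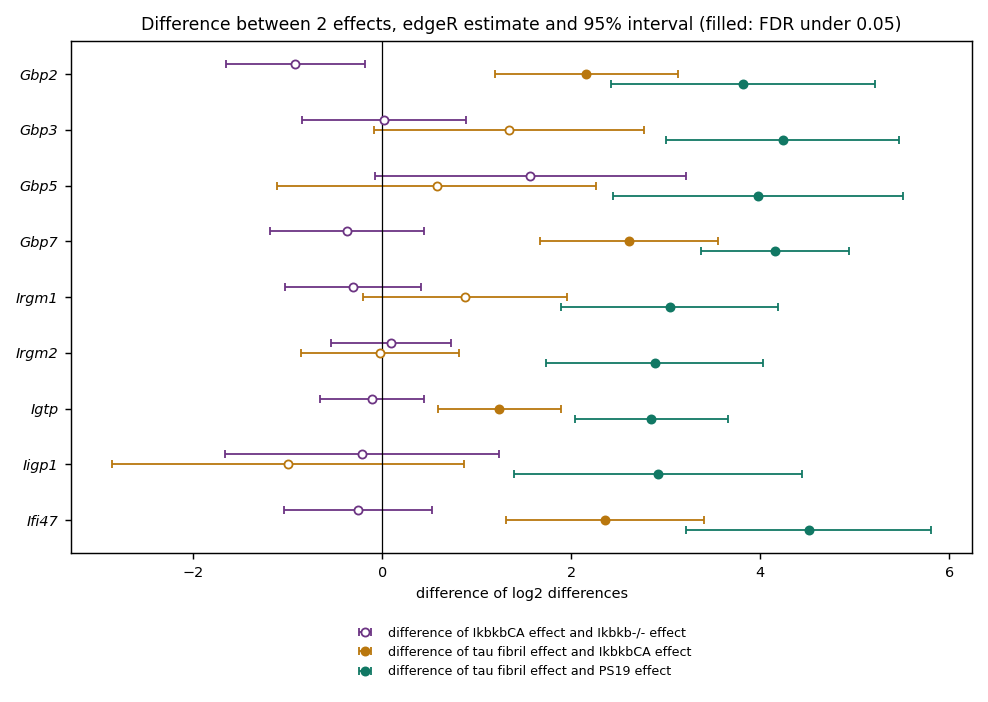
Difference between 2 effects, in log2 units (x axis), for each member (y axis), edgeR estimate with its 95% interval, filled where the FDR was under 0.05. The tau fibril effect exceeds the PS19 effect in all 9 members and the IkbkbCA effect in Gbp2, Gbp7, Igtp and Ifi47, and no difference between the IkbkbCA and Ikbkb-/- effects is filled.

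Across the 8 groups the members fell into different orders. These levels are a description, since the 4 experiments differ in age, genotype and culture. Gbp7 was highest in the adult brain, at 81.1 ± 13.9 CPM (SD, n = 4) in NTG and 56.1 ± 18.8 CPM in PS19 microglia, followed by Ikbkb-/-, tau fibril and IkbkbCA cultures, with each group overlapping the next down to Ikbkb+/+ and a gap only above vehicle. Gbp3 and Gbp5 were also highest in NTG microglia, at 20.2 ± 3.79 and 9.40 ± 4.33 CPM, and overlapped the tau fibril cultures. Irgm1 and Ifi47 stood at the other end in adult microglia: Irgm1 was 7.39 ± 0.90 CPM in NTG and 6.94 ± 1.92 CPM in PS19, and Ifi47 was 4.28 ± 2.53 and 4.67 ± 0.44 CPM, means that lie within the range of the Ikbkb+/+ and IkbkbWT cultures. Gbp2 (22.9 ± 2.68 CPM), Igtp (71.2 ± 12.2 CPM) and Ifi47 (34.9 ± 3.74 CPM) had their highest means with tau fibrils, Gbp2 without overlap with any other group. Igtp did not overlap the next group by mean, Ikbkb-/-. In PS19 replicate 3, however, Igtp was 59.1 CPM, above the lowest tau fibril culture at 58.3 CPM. Iigp1 was highest in IkbkbCA (26.2 ± 9.34 CPM) and Ikbkb-/- (23.7 ± 1.64 CPM) cultures, which overlapped each other, with a gap between Ikbkb-/- and the tau fibril cultures at 10.4 ± 2.91 CPM. The lowest IkbkbCA culture, at 10.6 CPM, lay within the tau fibril range of 7.23 to 14.3 CPM. Irgm1 (41.2 ± 6.03 CPM) and Irgm2 (50.6 ± 0.49 CPM) were highest in Ikbkb-/- cultures.

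Over the 34 libraries, with log2 CPM centred on the mean of each experiment, the members followed one another, with Pearson's r of 0.79 (Gbp5) to 0.97 (Igtp) between a member and the mean of the others. These values are a description, since the points share experiments and depth. Among 13704 genes, those outside both families most like the members' mean included Ifih1 (the RNA sensor MDA5, r = 0.976), Znfx1 (0.968), Ifit1 (0.967) and Trim30a (0.966). Ifih1 differed by 3.25, −0.01, 1.89 and 2.08 on the log2 scale with tau fibrils, in PS19, in IkbkbCA and in Ikbkb-/- microglia, in that order.

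**Figure D5:**
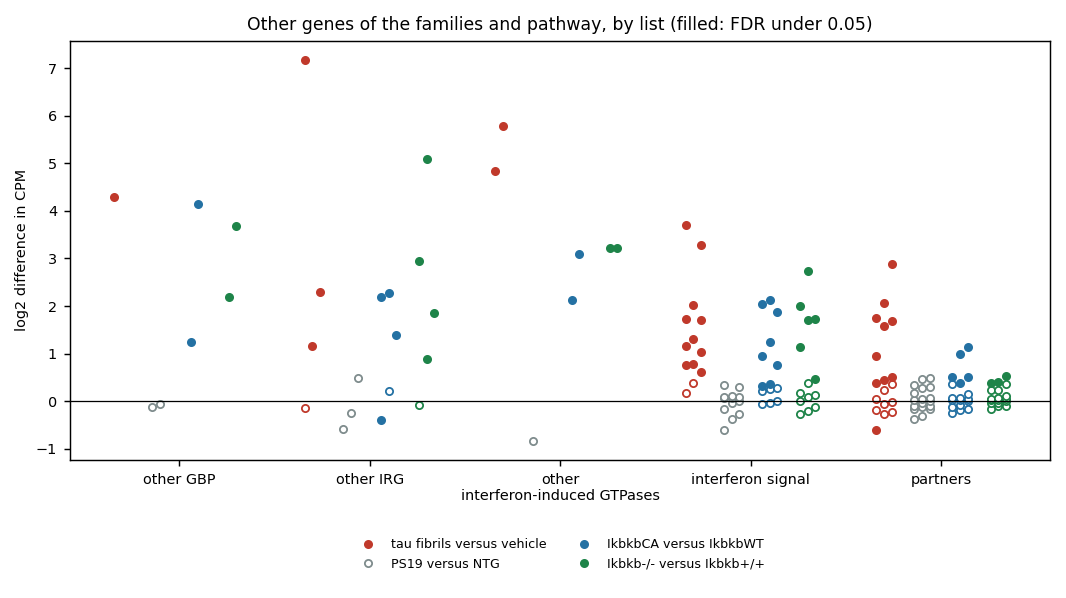
Log2 difference in CPM (y axis) of the genes tested in each list (x axis: other GBP, other IRG, Mx genes, interferon pathway and partner genes) in the 4 comparisons (colours), 1 point per gene, filled where the FDR was under 0.05. Filled points lie almost all above 0 with tau fibrils, in IkbkbCA and in Ikbkb-/- cultures, and PS19 has none.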

How the data were processed

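Microglia counts from 34 QuantSeq libraries were used, and the 24 cortex samples of the series were not analysed here. The authors ran the Lexogen QuantSeq 2.2.3 pipeline against GRCm38 with GENCODE annotation and deposited whole-number counts per gene without normalization. The paper names RSEM for its count table, which the layout of the deposited tables does not show. The 5 closing lines of each table, which hold reads not counted on a gene, were left out of library sizes. They put 12.4% to 38.3% of reads outside genes and 0.409% to 0.708% as ambiguous. Symbols came from GENCODE M21, which had 47224 of 47643 identifiers, and promoter windows from RefSeq.

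R 4.3.3 with edgeR 4.0.16 was used. In each comparison only its groups were fitted, with TMM normalization, filterByExpr (minimum count 10, minimum total count 15) and the quasi-likelihood test, Benjamini-Hochberg adjustment over all genes tested and a threshold of FDR 0.05. The 3 differences between effects were contrasts in 1 fit of 4 groups each. Standard errors came from the log2 difference and its F statistic. Intervals came from these standard errors and so hold the spread between libraries, while the limits for a count of 0 (3 counts), from reads without molecular identifiers, cover counting error only. Of 56 pairs of libraries in the same group, 0 held identical counts. Some pairs were more alike than others by mean chi-square per gene, which grows as 2 libraries differ more. In IkbkbCA it was 3.25 for replicates 1 and 2, 4.89 for 4 and 5, and 31.5 to 42.0 for pairs with replicate 3. In IkbkbWT it was 3.08 for replicates 1 and 2, 4.46 for 4 and 5, and 11.0 to 20.9 otherwise. Whether such pairs are independent cultures was not tested, and the standard errors treat all libraries as independent. The procedure was tested on simulated data. Comparisons with PS19 were exempt there from the required recovery of changed genes, so that test does not show that changes between PS19 and NTG mice would be found.

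All 9 members were named in every comparison, from each list up to 4 of the called genes with the largest change, and the 5 most alike genes. A gene that this rule named is counted in its list but not reported here. The members, lists and this rule were chosen with earlier results of these data known. Alternatives were RLE normalization, total-count scaling, DESeq2 1.42.0, limma-voom (limma 3.58.1), at least 10 counts in every library, no filter, leaving out each library, age as a covariate and a joint fit of 18 Ikbkb libraries. Covariates for Ddx3y and for reads outside genes, and leaving out 2 IkbkbWT cultures, were chosen after seeing the data. Protein sequences were not used here.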

Additional observations from a re-analysis of the deposited data

Results flagged for a closer look

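In 6 of 72 sets of 4 or 5 libraries (1 member in 1 group) a single library stood apart from the rest by Dixon's test at 95%, which chance does in about 1 in 20 sets. Gbp3 was 14.5 CPM in NTG replicate 1, with the nearest NTG mouse at 21.9 CPM, and Ifi47 was 0.518 CPM in the same library, with the nearest at 5.14 CPM. Gbp5 was 0 CPM in IkbkbWT replicate 2. Gbp7 was 39.9 CPM in tau fibrils replicate 3 and 34.3 CPM in the nearest tau fibril culture. Irgm2 was 49.8 CPM in Ikbkb-/- replicate 2, a small step from the nearest, at 50.8 CPM. Iigp1 was 3.59 CPM in IkbkbWT replicate 3 and 1.43 CPM in the nearest IkbkbWT culture.

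Effects that differed between experiments (edgeR's quasi-likelihood test of the difference, FDR under 0.05) were also set aside. The tau fibril effect was larger than the difference between IkbkbCA and IkbkbWT cultures by 2.16 for Gbp2, 2.61 for Gbp7, 1.24 for Igtp and 2.36 for Ifi47 on the log2 scale. Against the PS19 effect, the tau fibril effect was larger by 3.82 for Gbp2, 4.24 for Gbp3, 3.97 for Gbp5, 4.15 for Gbp7, 3.04 for Irgm1, 2.88 for Irgm2, 2.85 for Igtp, 2.92 for Iigp1 and 4.52 for Ifi47.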

How the results depend on the processing

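With tau fibrils and in Ikbkb-/- cultures each member kept its direction and its side of the threshold under every alternative run, and so did the difference between the tau fibril and PS19 effects. In IkbkbCA cultures 162 of 169 alternative values did so too, and the other 7, all for Gbp7, passed the threshold: RLE normalization, DESeq2, testing every gene, a minimum of 10 counts per library, the fit of 18 libraries, and leaving out IkbkbCA replicate 3 or IkbkbWT replicate 3. Leaving out 1 library gave 9 to 9 members called with tau fibrils, 0 to 0 in PS19, 8 to 9 in IkbkbCA, 8 to 8 in Ikbkb-/-, and 0 to 0, 4 to 4 and 9 to 9 for the differences of IkbkbCA and Ikbkb-/-, tau and IkbkbCA, and tau and PS19. Where at least 10 counts were required in every library, 1 member was left to test with tau fibrils and in both differences with tau, and 1 was called each time.

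The values that changed sign lay between −0.21 (Iigp1, difference of IkbkbCA and Ikbkb-/-) and 0.27 (Iigp1 in PS19) in the main fits. None of them passed the threshold. In PS19, Ifi47 was −0.30 with age as a covariate, and with the percentage of reads outside genes in its place Ifi47 was −0.093 and Igtp −0.015. Leaving out 1 library gave −0.29 to 0.22 for Ifi47, −0.016 to 0.47 for Igtp, −0.0021 to 0.62 for Iigp1 and −0.30 to 0.0039 for Irgm1. For the difference of IkbkbCA and Ikbkb-/-, Gbp3 was −0.013 with total-count scaling and −0.035 with limma-voom, and Iigp1 was 0.17 with Ddx3y as a covariate. Leaving out 1 library gave −0.21 to 0.21 for Gbp3, −0.072 to 0.29 for Irgm2, −0.20 to 0.042 for Igtp and −0.51 to 0.46 for Iigp1. For the difference of tau and IkbkbCA, Irgm2 was 0.057 without a filter and −0.22 to 0.20 with 1 library left out. The cause of these shifts was not tested. No paired analysis was possible because the replicate numbers only name libraries. Depth limits Gbp5 and the control levels of Gbp2, Gbp3 and Iigp1, which rest on few reads. It also limits vehicle levels of Ifi47, at 2 to 6 counts per library, Gbp7, at 4 to 18, and Irgm1, at 1 to 16.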
